A study of Mus musculus with 12 samples.

Results

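Hnf4a, Foxa1, Foxa2, Foxa3, Gata4, Gata6, Pdx1 and Sox9 encode transcription factors of the endoderm and the pancreas. Their RNA was read on Affymetrix mouse arrays in cultured pancreatic cancer cells. The members were the probe sets that the platform annotation pairs with exactly 1 gene symbol, where that symbol was one of these 8. In all, 17 of the 45101 probe sets in the table met this rule, and they stood for all 8 genes among the 18193 genes with such a probe set. Hnf4a had 4 probe sets, Gata6 and Sox9 had 3 each, Gata4 and Pdx1 had 2 each, and Foxa1, Foxa2 and Foxa3 had 1 each.

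There were 4 groups with 3 arrays each. The mt-CCs were a line from a tumor with 1 Trp53 R172H allele. The fl-CCs were a line from a tumor with 1 floxed Trp53 allele (LSL-Trp53 fl/+), and the authors call these cells p53-null. Both tumors also carried LSL-K-ras G12D/+, and in both the alleles were recombined by Pdx1-Cre, a transgene under the promoter of Pdx1, which is one of the 8 genes. The fl-CCs transfected with a vector for human mutant p53 (fl-CCs + p53 R175H) or with the empty vector (fl-CCs + EV) came from the same line, so all 4 groups share the K-ras G12D allele and the Cre, and the medium of the transfected cells alone held the selection drug G418. Each tumor genotype was 1 line, so the Trp53 allele and the line cannot be told apart. The arrays of a group were biological triplicates by the methods, but all of them came from 1 line, and each p-value therefore reads the spread among preparations of that line. Trp53 itself was not analysed here.

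Foxa factors open closed chromatin, and with Gata4 and Gata6 they act early in the gut endoderm from which liver and pancreas bud. Pdx1 is needed for the pancreas to form and is later highest in beta cells, Sox9 keeps pancreatic progenitors and is later kept in duct cells, and Hnf4a is a nuclear receptor that drives much of the secretory and metabolic program of the liver and gut. In pancreatic cancer, expression of GATA6, HNF4A and other endoderm factors is known as a trait of the classical subtype.

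Promoters of Hnf4a, Foxa1 and Foxa3 are shown first because these genes carry much of the 2 main patterns that follow. The first is a fall in mt-CCs, and the second is an opposite movement of Hnf4a and Foxa1 between fl-CCs + p53 R175H and fl-CCs + EV. Neither Hnf4a nor Foxa1 passed the test described below between fl-CCs + p53 R175H and untransfected fl-CCs. The promoter windows are RefSeq sequences of assembly GRCm38.p6, 250 bases before to 50 after a start site, and 8 windows were used, for 5 of the 8 members. Some windows were held back from the members but kept in the shares over all windows given below. A member without a window here may therefore still have one. Each of the 8 windows was searched on both strands for 7 motifs. GTTAAT is known from HNF1 sites and ATCAAT from Onecut sites. AGATAA is bound by zinc finger factors of the Gata family and TGTTTAC by forkhead factors. TAATTA is the core of many homeobox sites. CAAAGTCC is known from HNF4 sites, and ACAAAG is the core bound by SOX factors. Capitals mark the matches, and bases that belong to more than 1 match are in capitals once. The first Hnf4a window lies at chr2:163506607-163506906, the second at chr2:163546905-163547204, both on the plus strand. The Foxa1 window lies at chr12:57546062-57546361 and the Foxa3 window at chr7:19023490-19023789, both on the minus strand, and all are written 5′ to 3′ in the direction of transcription.
Hnf4a, first window: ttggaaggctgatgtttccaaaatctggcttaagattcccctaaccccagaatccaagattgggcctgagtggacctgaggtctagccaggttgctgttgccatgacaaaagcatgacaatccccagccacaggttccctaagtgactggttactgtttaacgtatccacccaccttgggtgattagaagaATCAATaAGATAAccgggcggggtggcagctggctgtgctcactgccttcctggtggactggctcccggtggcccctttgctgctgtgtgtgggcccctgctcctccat
Hnf4a, second window: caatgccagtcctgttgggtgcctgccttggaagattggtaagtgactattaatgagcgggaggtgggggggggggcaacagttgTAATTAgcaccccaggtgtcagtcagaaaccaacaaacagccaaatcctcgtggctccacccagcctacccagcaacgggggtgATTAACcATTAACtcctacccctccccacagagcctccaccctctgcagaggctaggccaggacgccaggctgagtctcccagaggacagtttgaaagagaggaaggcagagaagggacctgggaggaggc
Foxa1: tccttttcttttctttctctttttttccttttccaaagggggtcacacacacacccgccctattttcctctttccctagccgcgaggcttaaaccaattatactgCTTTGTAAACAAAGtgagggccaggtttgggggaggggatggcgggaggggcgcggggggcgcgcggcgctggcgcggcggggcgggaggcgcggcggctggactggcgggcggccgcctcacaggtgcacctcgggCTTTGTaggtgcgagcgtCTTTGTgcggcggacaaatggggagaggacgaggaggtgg
Foxa3: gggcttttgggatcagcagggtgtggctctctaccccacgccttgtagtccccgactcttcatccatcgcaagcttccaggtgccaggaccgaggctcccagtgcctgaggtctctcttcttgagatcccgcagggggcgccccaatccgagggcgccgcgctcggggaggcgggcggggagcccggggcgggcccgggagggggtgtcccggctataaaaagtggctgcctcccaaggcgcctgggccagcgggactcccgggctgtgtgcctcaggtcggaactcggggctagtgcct

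The first Hnf4a window held 1 ATCAAT, starting 59 bases before the start site, and 1 AGATAA, starting 52 bases before it. The second held GTTAAT on the opposite strand at 81 and at 74 bases before the start and TAATTA at 165 bases before it. The Foxa1 window held TGTTTAC on the opposite strand at 141 bases before the start, overlapped on each side by an ACAAAG match, and 4 ACAAAG matches in all. The Foxa3 window held 0 of the 7 motifs. Foxa2, which moved by less, had 3 windows, which are not printed. The one at chr2:148045415-148045714 held AGATAA at 183 bases before the start, GTTAAT on the opposite strand at 176, and ACAAAG on the opposite strand at 171, with another ACAAAG at base 280 of the window. The one at chr2:148046920-148047219 held ATCAAT on the opposite strand at 213 bases before its start, and the one between them held 0. The Pdx1 window, also not printed, held 0. Of all 32851 windows, 7.10% held GTTAAT, 7.54% ATCAAT, 11.2% AGATAA, 3.65% TGTTTAC, 5.29% TAATTA, 1.42% CAAAGTCC and 18.7% ACAAAG. These matches describe letters in the windows, and binding was not measured. The array values do not separate RNA from the first and the second Hnf4a start.

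All values are log2 RMA values as deposited, a difference of 1 is a doubling, and a level is compared only within 1 probe set. Probe sets of olfactory, vomeronasal and taste receptors had a median of 2.79, and 95.3% of their 996 values were under 5, so a value under 5 was taken as near background. Differences were tested with limma over 45037 probe sets with a call where the p, adjusted by Benjamini-Hochberg, was at most 0.05. Arrays within a group correlated at 0.994 to 0.996, mt-CCs with the other groups at 0.959 to 0.962, and the 3 fl-CC groups with each other at 0.983 to 0.990. In bulk RNA, fewer cells of a type and less RNA per cell cannot be told apart.

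Between mt-CCs and fl-CCs, Hnf4a, Foxa3 and Gata6 were far lower in mt-CCs, Foxa1 and Foxa2 were lower by less, and Pdx1 was higher. Gata4 and Sox9 did not pass the test. Of the 17 probe sets, 10 were lower and 2 were higher, beside 30.7% of all probe sets called in either direction. In terms of genes, 5 of 8 were lower and 1 was higher, beside 21.1% of all genes lower and 22.2% higher. The median difference over the 17 was -0.88, and that over all probe sets tested was -0.02. All 12 calls held when any 1 of the 12 arrays was left out.

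**Figure D1:**
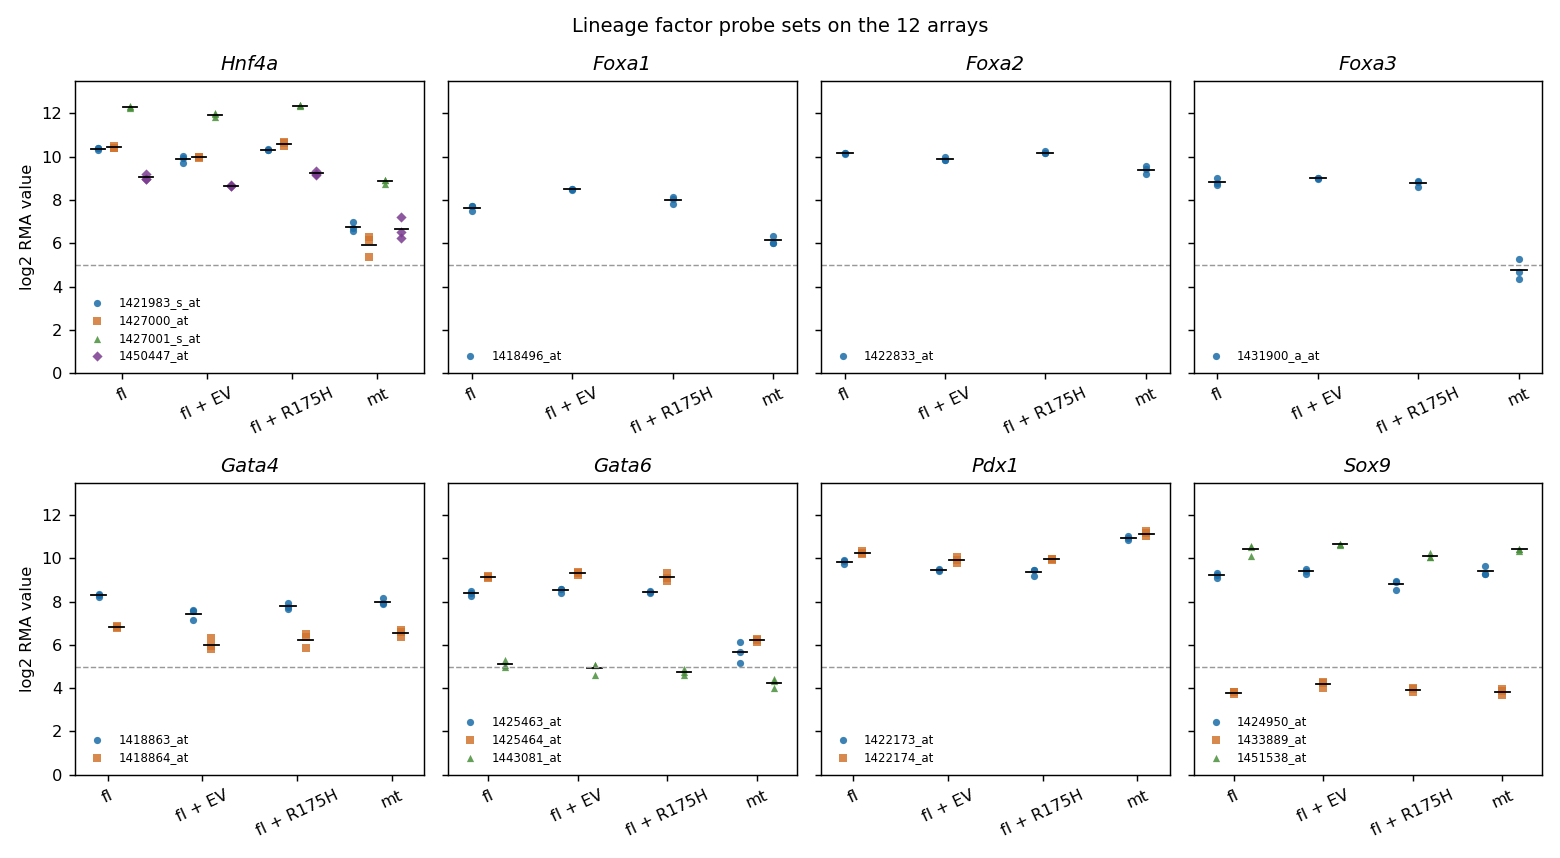
Log2 RMA values (y axis) of the 17 probe sets on every array, in 1 panel per gene, for fl-CCs, fl-CCs + EV, fl-CCs + p53 R175H and mt-CCs (x axis). Each symbol is 1 array, colors and shapes are probe sets, short lines are group means, and the dashed line is the near-background level of 5. In mt-CCs the brightest Hnf4a probe set lay between 8.74 and 8.92, under all 9 other arrays, and both Pdx1 probe sets lay above all other arrays.

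Hnf4a, the nuclear receptor, was lower in mt-CCs with all 4 probe sets. Its brightest probe set, 1427001_s_at, read 12.36, 12.27 and 12.31 in fl-CCs and 8.74, 8.92 and 8.91 in mt-CCs. That is a difference of -3.46 ± 0.08 (SE, n = 3 and 3, limma adjusted p = 2.81e-11). The other 3 probe sets differed by -4.49 ± 0.19 (1427000_at, adjusted p = 2.38e-09), -3.64 ± 0.11 (1421983_s_at, adjusted p = 2.09e-10) and -2.40 ± 0.19 (1450447_at, adjusted p = 9.15e-07). The probe sets agreed in direction, from 5.28-fold to 22.5-fold lower. No mt-CC array fell under 5 with any of them, the lowest being 5.37 with 1427000_at, so Hnf4a RNA stayed above the near-background level in mt-CCs.

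All 3 Foxa genes passed the test as lower in mt-CCs. Foxa3, known from the liver and gut as the forkhead factor that acts beside Foxa1 and Foxa2, read 8.69, 8.80 and 9.01 in fl-CCs and 5.29, 4.65 and 4.33 in mt-CCs. It fell by 4.08 ± 0.19 (adjusted p = 7.61e-09), and 2 of the 3 mt-CC arrays lay near background. Foxa1, a pioneer factor of endoderm and of several epithelia, read 7.70, 7.49 and 7.73 in fl-CCs and 6.02, 6.34 and 6.03 in mt-CCs, a difference of -1.51 ± 0.12 (adjusted p = 8.35e-07). Foxa2, which is needed for foregut endoderm in the mouse, read 10.13, 10.18 and 10.19 in fl-CCs and 9.55, 9.45 and 9.20 in mt-CCs, a difference of -0.77 ± 0.10 (adjusted p = 6.34e-05). The groups did not overlap for any of the 3 genes. That held for 14 of the 17 probe sets, those of Gata4 among them, and the share over all probe sets was not computed.

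Of the 2 Gata genes, Gata6 passed the test as lower in mt-CCs and Gata4 did not. Gata6, a zinc finger factor that with Gata4 is needed for the mouse pancreas, read 9.08, 9.16 and 9.18 in fl-CCs and 6.28, 6.23 and 6.12 in mt-CCs with 1425464_at. It was 7.63-fold lower there (-2.93 ± 0.10, adjusted p = 3.67e-10) and fell by 2.73 ± 0.19 with 1425463_at (adjusted p = 2.84e-07). The third Gata6 probe set, 1443081_at, was dim, with every mt-CC array under 5 and fl-CCs at 5.13, so its fall of at least 0.13 is only a bound (adjusted p = 0.00071). Gata4 read 8.32, 8.37 and 8.20 in fl-CCs and 7.88, 8.16 and 7.95 in mt-CCs with 1418863_at, groups that did not overlap. The difference of -0.30 ± 0.13 did not pass the test (adjusted p = 0.113, 95% interval -0.58 to -0.01), nor did -0.29 ± 0.17 with 1418864_at (adjusted p = 0.236, interval -0.66 to 0.08).

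Pdx1, the homeobox factor of pancreas and duodenum, was the 1 gene of the 8 that passed the test as higher in mt-CCs. With 1422173_at it read 9.94, 9.86 and 9.73 in fl-CCs and 11.05, 10.93 and 10.87 in mt-CCs, a difference of 1.11 ± 0.10 (2.16-fold, adjusted p = 2.65e-06). With 1422174_at the difference was 0.89 ± 0.09 (adjusted p = 1.15e-05), and with both probe sets each mt-CC array lay above each other array of the series. Pdx1 protein was not analysed here.

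Sox9, the factor of duct cells and cartilage, did not pass the test between the lines. With 1451538_at it read 10.13, 10.54 and 10.58 in fl-CCs and 10.45, 10.44 and 10.36 in mt-CCs, and the groups overlapped. The difference was -0.0023 ± 0.11, with a 95% interval of -0.25 to 0.25 (adjusted p = 0.991). With 1424950_at it was 0.17 ± 0.14 (interval -0.13 to 0.48, adjusted p = 0.407). The third probe set, 1433889_at, was under 5 on all 12 arrays and is given no difference.

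Markers of other cell states moved in the same comparison. Of 15 epithelial and duct markers measured, 11 were lower and 1 was higher in mt-CCs, beside 21.1% of all genes lower and 22.2% higher. Among those called, 1 had all arrays of both groups under 5. The summed level of the 15 markers ran from 15.01 to 15.10 (log2 of the summed values) in mt-CCs and from 15.76 to 15.81 in fl-CCs. Of 20 fibroblast and mesenchymal markers, 12 were higher and 2 lower, with summed levels of 14.37 to 14.48 against 13.91 to 13.98. Among the epithelial markers the keratins Krt20 and Krt7 fell by at least 5.53 and by 4.45 ± 0.10 and the mucin Muc1 by 5.47 ± 0.12, while the claudin Cldn3 was higher by at least 0.90 (0.70 with its probe set of highest mean). Among the mesenchymal markers the collagen Col3a1 was higher by at least 4.50, the receptor Pdgfrb by at least 2.01 (1.25 with its probe set of highest mean) and the bHLH factor Twist2 by 3.97 ± 0.22, and Cdh2 (-0.75 ± 0.11) and Acta2 (-0.60 ± 0.17) were lower. The part of this shift in the values of the 8 factors was not tested. Of 9 leukocyte markers, 7 were under 5 on every mt-CC array, Ptprc, which defines leukocytes, among them, and Cd68 was higher by 1.91 ± 0.12 (adjusted p = 1.48e-07), while Laptm5 passed as lower with both groups under 5. The summed leukocyte level was 8.41 to 8.43 in mt-CCs and 7.54 to 7.70 in fl-CCs. All but 1 of the 8 endothelial markers were under 5 on every mt-CC array, with summed levels of 7.29 to 7.38 in mt-CCs and 7.35 to 7.43 in fl-CCs. Of the endothelial markers 3 were lower and 1 higher, and in 3 of these 4 (Pecam1, Cdh5 and Kdr) all arrays of both groups were under 5. The fourth was Esam (-0.93 ± 0.20), with 1 fl-CC array over 5. Of the 6 acinar and 7 islet markers, 1 passed the test in this comparison, Prss2, which was near background in both groups. Their summed levels were 7.89 to 7.93 and 7.95 to 8.33 in mt-CCs and 7.73 to 7.83 and 7.95 to 8.03 in fl-CCs.

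Between the transfected groups the factors moved by less and in another pattern. Against fl-CCs + EV, fl-CCs + p53 R175H had more Hnf4a and Foxa2 and less Foxa1 and Sox9, while Foxa3, Gata4, Gata6 and Pdx1 did not pass the test. Of the 17 probe sets 5 were higher and 3 lower, beside 20.3% of all probe sets called. The median difference was -0.07 over the 17 and -0.01 over all. The count of 8 fell to 4 or 5 when 1 of the arrays EV 2, EV 3, R175H 1, R175H 2 or R175H 3 was left out.

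Hnf4a rose in fl-CCs + p53 R175H with each of its 4 probe sets. With 1427001_s_at it read 11.97, 12.001 and 11.82 in fl-CCs + EV and 12.34, 12.38 and 12.37 in fl-CCs + p53 R175H, a difference of 0.43 ± 0.08 (1.35-fold, adjusted p = 0.00325). This call held in each refit named among the processing settings and without each of the 12 arrays. The other probe sets gave 0.44 ± 0.11 (1421983_s_at, adjusted p = 0.0178), 0.63 ± 0.19 (1427000_at, adjusted p = 0.0312) and 0.59 ± 0.19 (1450447_at, adjusted p = 0.0444). The last 2 of these lost the call whichever array of the 2 groups was left out, with adjusted p of 0.0584 to 0.0897 for 1427000_at and 0.0805 to 0.130 for 1450447_at. The call of 1421983_s_at was lost without EV 3 (adjusted p = 0.0752), R175H 2 (0.0588) or R175H 3 (0.0503).

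Foxa2 rose slightly and Foxa1 fell. Foxa2 read 9.84, 9.85 and 9.99 in fl-CCs + EV and 10.16, 10.24 and 10.18 in fl-CCs + p53 R175H, a difference of 0.30 ± 0.10 (adjusted p = 0.0467) that lost the call without any 1 array of the 2 groups (adjusted p = 0.0524 to 0.133). Foxa1 read 8.52, 8.45 and 8.49 in fl-CCs + EV and 7.80, 8.07 and 8.12 in fl-CCs + p53 R175H, a difference of -0.49 ± 0.12 (adjusted p = 0.0107). The groups did not overlap, as for 11 of the 17 probe sets in this comparison, that of Foxa3 among them. The share over all probe sets was not computed here either. The Foxa1 call held without each array in turn. Foxa3 differed by -0.24 ± 0.19 (adjusted p = 0.467).

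Sox9 fell in fl-CCs + p53 R175H with both bright probe sets. With 1451538_at it read 10.68, 10.67 and 10.63 in fl-CCs + EV and 10.08, 10.23 and 10.07 in fl-CCs + p53 R175H, a difference of -0.53 ± 0.11 (1.44-fold lower, adjusted p = 0.00588). With 1424950_at the difference was -0.61 ± 0.14 (adjusted p = 0.00828), and both calls held without each array. Gata4 differed by 0.35 ± 0.13 (1418863_at, adjusted p = 0.0836) and 0.21 ± 0.17 (1418864_at, adjusted p = 0.455). The bright Gata6 probe sets differed by -0.07 ± 0.19 and -0.19 ± 0.10 and the Pdx1 probe sets by -0.11 ± 0.10 and 0.03 ± 0.09, with adjusted p of 0.235 to 0.883.

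In the same comparison 4 of the 15 epithelial and duct markers were higher and 3 lower, and 4 of the 20 fibroblast and mesenchymal markers were higher and 1 lower, beside 15.3% of all genes higher and 15.1% lower. The summed epithelial level was 15.56 to 15.58 in fl-CCs + p53 R175H and 15.70 to 15.76 in fl-CCs + EV, and the mesenchymal one 14.05 to 14.20 and 14.05 to 14.10. Cldn7 was higher by at least 0.38 and Ocln by 1.26 ± 0.11, and Krt7 (-1.04 ± 0.10) and Cftr (-0.87 ± 0.24) were lower. Twist1 was higher by at least 3.33 and Acta2 by 0.92 ± 0.17, and Cdh2 was lower (-0.38 ± 0.11), which its probe set of highest mean did not pass (-0.15). Laptm5 passed as higher with 1 array over 5, and with its probe set of highest mean it differed by -0.04. The part of these markers in the values of the factors was not tested. The leukocyte marker Ptprc, the endothelial marker Cdh5, the acinar marker Prss2 and the endocrine factor Myt1 passed with both groups under 5.

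**Figure D2:**
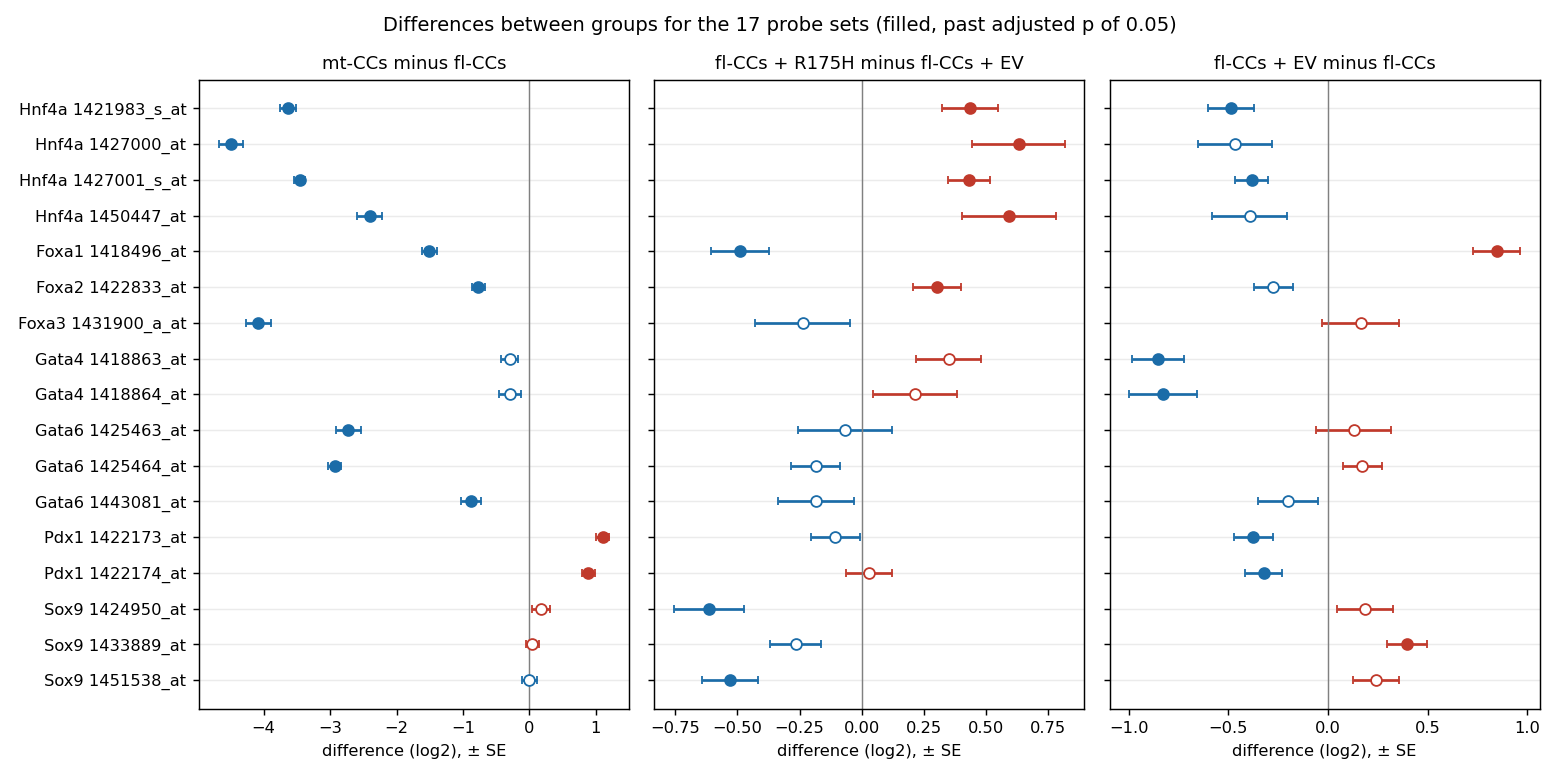
Log2 differences (x axis) with their standard errors for the 17 probe sets (y axis) in 3 comparisons, each with its own x scale. Filled circles passed an adjusted p of 0.05, red is higher and blue lower in the first-named group. Hnf4a lay between -4.49 and -2.40 in the left panel and between 0.43 and 0.63 in the middle one, and the middle and right panels share the fl-CCs + EV arrays.

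The comparison of fl-CCs + EV with untransfected fl-CCs sets the transfected control beside the untransfected line, and it shares the fl-CCs + EV arrays with the one above. Foxa1 was higher in fl-CCs + EV (0.85 ± 0.12, adjusted p = 0.000593), and Gata4, Hnf4a and Pdx1 were lower. Gata4 read 7.16, 7.57 and 7.60 with 1418863_at in fl-CCs + EV, against 8.20 to 8.37 in fl-CCs. Its differences were -0.85 ± 0.13 (adjusted p = 0.0012) and -0.83 ± 0.17 with 1418864_at (adjusted p = 0.00744), the largest falls among the 8 genes in this comparison. Hnf4a passed with 2 of its 4 probe sets (1421983_s_at -0.48 ± 0.11, adjusted p = 0.0162; 1427001_s_at -0.38 ± 0.08, adjusted p = 0.0112), and the other 2 gave -0.46 ± 0.19 and -0.39 ± 0.19. Pdx1 differed by -0.37 ± 0.10 (adjusted p = 0.0272) and -0.32 ± 0.09 (adjusted p = 0.0414). In a limma fit of these groups alone, Hnf4a 1427000_at passed as well (adjusted p = 0.0155), and Pdx1 1422174_at did not (adjusted p = 0.0960).

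In all, 2 of the 17 probe sets were higher and 6 lower in fl-CCs + EV, beside 12.1% of all probe sets called, with a median of -0.27 against -0.01 over all. One of the 2 higher ones was the near-background Sox9 probe set. The Foxa1 and Gata4 calls and that of Hnf4a 1427001_s_at held without each array. The count of 8 fell to 5 without any of fl-CCs 1, 2 or 3 or EV 2 or 3, through losses among Pdx1 (adjusted p up to 0.153), Sox9 1433889_at (up to 0.0936) and Hnf4a 1421983_s_at (0.0548 without fl-CCs 3 and 0.0671 without EV 3).

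Set directly against untransfected fl-CCs, fl-CCs + p53 R175H differed in 3 of 17 probe sets, all lower, beside 15.0% of all probe sets called. These were Gata4 with both probe sets (-0.50 ± 0.13, adjusted p = 0.0222, and -0.61 ± 0.17, adjusted p = 0.0303) and Pdx1 with 1422173_at (-0.48 ± 0.10, adjusted p = 0.00621). Hnf4a differed by 0.05 ± 0.08 with 1427001_s_at (adjusted p = 0.784). Both Gata4 calls were lost without fl-CCs 1 (adjusted p = 0.0638 and 0.0842), without fl-CCs 2 (0.0728 and 0.075) and without R175H 3 (0.0841 and 0.0502), and 1 of them without fl-CCs 3 (0.0637), R175H 1 (0.109) or R175H 2 (0.0634). The count of 3 fell to 1 without fl-CCs 2 or R175H 3 and rose to 5 without mt-CCs 1.

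Across the 4 groups, the order of the levels differed between genes. For all Hnf4a probe sets mt-CCs were lowest and fl-CCs + EV next, and fl-CCs and fl-CCs + p53 R175H, the upper 2, did not differ past the test. The step from fl-CCs + EV to the next group passed for 1421983_s_at and 1427001_s_at only. For Foxa3 and the bright Gata6 probe sets mt-CCs were lowest, and no neighbours among the other 3 groups differed past the test. For Foxa1 the order was mt-CCs, fl-CCs, fl-CCs + p53 R175H and fl-CCs + EV, and only the middle step (0.36, adjusted p = 0.0619) did not pass. For Foxa2 the order was mt-CCs, fl-CCs + EV, fl-CCs and fl-CCs + p53 R175H, and only the first step passed. For the bright Sox9 probe sets fl-CCs + p53 R175H were lowest and fl-CCs + EV highest, and no step passed. For Gata4 fl-CCs + EV were lowest and fl-CCs highest, and no step between neighbours passed. For Pdx1 mt-CCs were highest, above fl-CCs, with the transfected groups below. Against fl-CCs + EV, mt-CCs differed in 15 of the 17 probe sets (11 lower and 4 higher, beside 33.0% of all called). Among the 11 were the near-background Sox9 probe set, 1433889_at, and the dim Gata6 1443081_at. The latter had every mt-CC array under 5 and a mean of 4.93 in fl-CCs + EV. The Sox9 probe set lost the call in a fit of these groups alone, with an intensity trend, and without mt-CCs 1, EV 2 or EV 3 (adjusted p = 0.0530 to 0.0736). Gata4 was higher in mt-CCs (0.56 ± 0.13, adjusted p = 0.00541, and 0.54 ± 0.17, adjusted p = 0.0287). The second of these was lost without mt-CCs 1 or 2 or EV 1 or 3 (adjusted p = 0.0769 to 0.113). Against fl-CCs + p53 R175H, mt-CCs differed in 13 (10 lower and 3 higher, beside 33.1%; 1 of the 10, Gata6 1443081_at, was under 5 on every array of both groups and lost the call without mt-CCs 3, R175H 2 or R175H 3, at adjusted p of 0.0993, 0.0864 and 0.0561), with Sox9 higher with 1424950_at (0.60 ± 0.14, adjusted p = 0.00519).

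The difference between mt-CCs and fl-CCs was itself set against that between fl-CCs + p53 R175H and fl-CCs + EV. This difference of differences passed in 15 of the 17 probe sets (11 below and 4 above 0), beside 26.8% of all. One of the 11 was Gata6 1443081_at, which was under 5 on every array of mt-CCs and of fl-CCs + p53 R175H, so no size is read from it. For Hnf4a it ran from -5.13 ± 0.26 to -2.99 ± 0.27. The 2 that did not pass were Gata4 1418864_at (-0.51 ± 0.24, adjusted p = 0.153) and the near-background Sox9 probe set.

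Genes that HNF4A and the FOXA factors are known to drive in the liver were read as a list of 35, of which 33 were measured. In mt-CCs 12 were lower and 1 was higher than in fl-CCs, beside 21.1% and 22.2% of all genes, with a median of -0.18 against -0.01 over all genes. Apob and Ttr, which encode an apolipoprotein and the carrier of thyroxine, fell by at least 7.09 and at least 6.48, and Serpina1b, an antitrypsin gene whose reads can come from near-identical copies, by at least 3.52. In each of these every mt-CC array was under 5 with the probe set of smallest adjusted p. With its probe set of highest mean, Apob read 11.66, 11.75 and 11.94 in fl-CCs and 5.06, 4.91 and 4.37 in mt-CCs. Mttp, which loads lipid onto apolipoprotein B, was higher by 1.04 ± 0.15 (adjusted p = 0.00016). Of the 33 genes 14 had all arrays of both groups under 5.

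In fl-CCs + p53 R175H 13 of the 33 genes were higher than in fl-CCs + EV and 0 were lower, beside 15.3% of all genes higher and 15.1% lower, with a median of 0.23 against -0.03 over all genes. In 2 of the 13 both groups were near background. Ambp, a plasma protein gene of the liver, read 5.88, 6.14 and 6.15 in fl-CCs + EV and 10.56, 10.96 and 11.10 in fl-CCs + p53 R175H, a rise of 4.82 ± 0.19 (adjusted p = 1.15e-08). Serpina1b rose by at least 3.42. At an unadjusted limma p of 0.05, 15 were higher and 2 lower. Without single arrays the counts were 12 to 14 higher and 0 or 1 lower, the 1 being without R175H 3.

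Against untransfected fl-CCs, fl-CCs + EV had 9 of the 33 lower and 0 higher, beside 9.20% and 10.4% of all genes, with a median of -0.23. At an unadjusted limma p of 0.05, 16 were lower and 1 higher. In fl-CCs + p53 R175H 8 were higher and 2 lower than in fl-CCs, beside 12.5% and 11.5%, and the 8 fell to 5 without fl-CCs 2 or R175H 3 and the 2 to 1 without fl-CCs 3, R175H 1 or R175H 3. Among the genes called in this comparison, 2 had all arrays of both groups under 5. Ambp fell by 3.46 ± 0.19 in fl-CCs + EV (adjusted p = 5.43e-07) and was 1.36 ± 0.19 higher in fl-CCs + p53 R175H than in fl-CCs, whose arrays read 9.53, 9.23 and 9.77. Ttr was lower than in fl-CCs in both transfected groups, with differences of -1.30 ± 0.18 in fl-CCs + EV and -1.63 ± 0.18 in fl-CCs + p53 R175H. The 3 comparisons share arrays pair by pair.

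**Figure D3:**
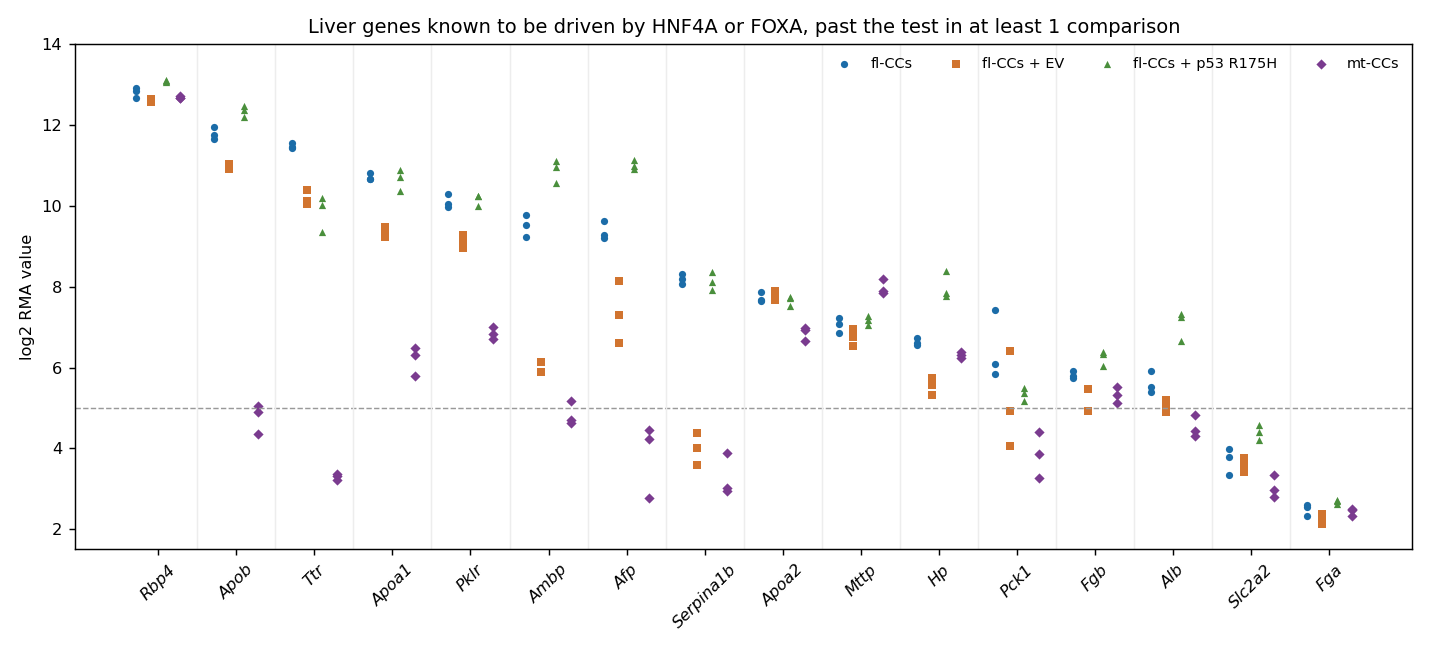
Log2 RMA values (y axis) on every array for the 16 liver genes of the list that passed the test between mt-CCs and fl-CCs or between fl-CCs + p53 R175H and fl-CCs + EV (x axis, ordered by their level in fl-CCs), each gene with its probe set of highest mean. Symbols are single arrays, and the dashed line is the near-background level of 5. Ttr in mt-CCs lay between 3.23 and 3.37, and Ambp in fl-CCs + EV lay between 5.88 and 6.15, under the other fl-CC groups.

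Other factors of the liver, gut and duct lineages moved in both directions. Of 27 measured, 14 fell and 4 rose in mt-CCs against fl-CCs, beside 21.1% and 22.2% of all genes, with a median of -0.60 against -0.01 over all genes. Among the factors called, 2 had all arrays of both groups under 5. Gata5, another endoderm GATA factor, read 9.14, 9.12 and 9.07 in fl-CCs and 4.13, 3.96 and 3.73 in mt-CCs, a fall of at least 4.11. Onecut1 fell by at least 1.37, and with its probe set of highest mean it differed by -1.02. Onecut2 fell by 2.30 ± 0.13. Cdx2, the homeobox factor of the intestine, read 7.69 ± 0.27 (SD, n = 3) in fl-CCs and 11.28, 10.92 and 11.37 in mt-CCs, higher by 3.50 ± 0.18 (adjusted p = 1.47e-08). Ehf, an epithelial ETS factor, was higher by 3.39 ± 0.15 and Cebpa, a factor of liver and fat, by 1.62 ± 0.17.

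In fl-CCs + p53 R175H 6 of these 27 were higher and 7 lower than in fl-CCs + EV, beside 15.3% and 15.1% of all genes. Ehf rose by at least 3.38, but by 2.01 with its probe set of highest mean, and Prox1, a homeobox factor of liver and lymphatic vessels, rose by at least 2.46. Cdx2 fell by 1.06 ± 0.18 and Hnf4g, the paralog of Hnf4a, by at least 0.22. Factors of acinar and endocrine cells were mostly near background, with 10 of 14 under 5 in both mt-CCs and fl-CCs and Ptf1a, which defines acinar cells, between 3.15 and 4.05 on all arrays. Of these 14, Nkx6-2 (-0.53 ± 0.12, adjusted p = 0.0059) and Myt1, which was near background, were lower in mt-CCs.

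**Figure D4:**
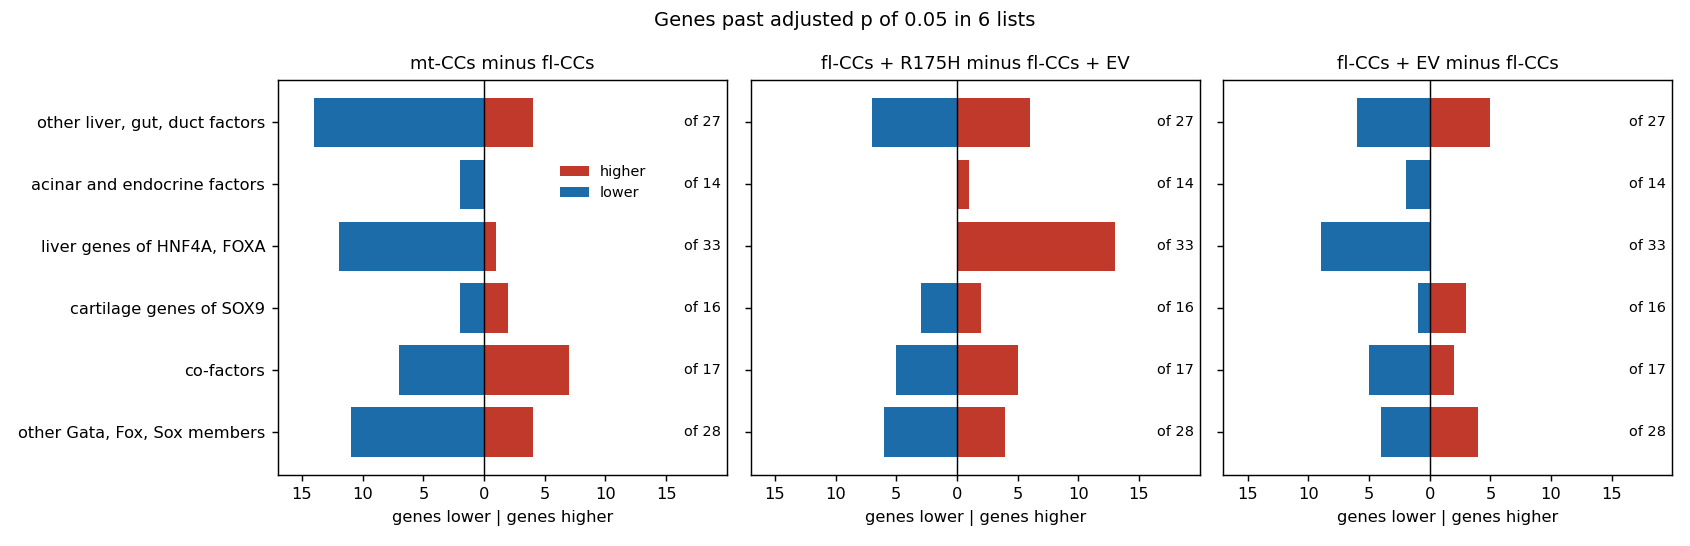
Number of genes past an adjusted p of 0.05 (x axis, lower to the left of 0 and higher to the right) in 6 lists (y axis) for 3 comparisons, with the number measured at the right. The list of liver genes had 12 lower and 1 higher in mt-CCs against fl-CCs, 13 higher in fl-CCs + p53 R175H against fl-CCs + EV, and 9 lower in fl-CCs + EV against fl-CCs.

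The genes most like each member were found over the 12 arrays, after each probe set was centred on its mean, by the root mean square of the differences (RMS, log2), among 18192 genes. The 12 points come from 4 groups, so the measure mostly reads how group means lie. Nearest to Hnf4a were Pear1 (RMS 0.12), Dennd5b (0.14) and Plekha7 (0.19), beside a median of 1.47 over all genes. Nearest to Gata6 were Pard6b, Epcam and Bicc1 (0.16 to 0.17, median 1.31), of which Epcam is an adhesion protein of epithelia. Nearest to Foxa3 were Tlcd5, Smpd3 and Rtn4rl1 (0.22 to 0.29, median 1.80), and to Foxa1 Oaz3, Padi2 and Slc7a6 (0.16 to 0.21, median 0.91). Foxa2 was nearest to Ppat, Plgrkt and Ercc1 (0.08 to 0.10, median 0.39) and Sox9 to Tmem256, Marchf6 and Wbp2 (0.08 to 0.09, median 0.31). Gata4 was nearest to Cep55, Cdc42ep5 and Sgo1 (0.13 to 0.16, median 0.40), and Pdx1 to Nt5dc3, Krt80 and Oxa1l (0.11 to 0.12, median 0.54).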

How the data were processed

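Processed values of 12 Affymetrix mouse arrays were used. The authors summarized and normalized the arrays by RMA (no version given in the submitters' processing notes), and the deposited values are log2 RMA values. Replicate spread is between 3 arrays a group, which limits the precision. From these values, 64 control probe sets were left out, 45037 were fitted with limma 3.58.1 (lmFit on 4 group means, eBayes) in R 4.3.3, and p-values were adjusted by Benjamini-Hochberg over all of them. The methods name Partek for differential expression and do not say which arrays entered its fit. A gene was read by its probe set of smallest adjusted p unless stated otherwise. Where every array of the dimmer group was under 5, the difference is given as at least the brighter mean minus 5, and none is given where both groups are under 5. The fit was tested on simulated data.

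Gene names come from the annotation of the platform (34945 with 1 symbol, 932 with several), and promoters come from RefSeq. The deposited table names no genome build. The 8 members and 12 gene lists (215 entries, 200 measured) were chosen with earlier results of these data known, so no count over them is independent evidence. The genes named are the members, in each list the 3 largest rises and 3 largest falls past the threshold in mt-CCs against fl-CCs and the 2 and 2 in fl-CCs + p53 R175H against fl-CCs + EV, and the 3 genes most like each member. Ptf1a and Ptprc are named as defining markers, and Ttr, Mttp and Ambp are followed into other comparisons because the rule named them. Other settings tried were a fit of the compared groups alone, a block for replicate number, variance moderation, an intensity trend, array weights, a filter at a mean of 5, control probe sets, quantile normalization, a fold limit, the probe set per gene, the near-background level and each array left out (for the liver list this was added after seeing the data).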

Additional observations from a re-analysis of the deposited data

Results flagged for a closer look

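In 15 of the 17 probe sets the difference between mt-CCs and fl-CCs itself differed from the difference between fl-CCs + p53 R175H and fl-CCs + EV, by limma's test of the difference of differences (log2, adjusted over 45037 probe sets). For Hnf4a the 4 values were -4.07 ± 0.16, -5.13 ± 0.26, -3.89 ± 0.12 and -2.99 ± 0.27 (SE), with adjusted p of 4.5e-10 to 4.27e-06. For the Foxa genes they were -1.02 ± 0.17 (Foxa1), -1.07 ± 0.14 (Foxa2) and -3.84 ± 0.27 (Foxa3). Gata6 gave -2.66 ± 0.27 and -2.75 ± 0.14. Its dim probe set, 1443081_at, is among the 15 with -0.70 ± 0.21, but every mt-CC and R175H array of it was under 5, so no size is read from that value. Gata4 gave -0.65 ± 0.18 with 1 of its 2 probe sets. Pdx1 gave 1.22 ± 0.14 and 0.86 ± 0.13, and Sox9 gave 0.79 ± 0.20 and 0.53 ± 0.16 with its 2 bright probe sets.

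Some of the smaller values lost the call without single arrays. Gata4 1418863_at lost it without R175H 1 (adjusted p = 0.0525). Sox9 1451538_at lost it without mt-CCs 1 or 2, EV 1 or 2, or R175H 1 or 3 (adjusted p = 0.055 to 0.0649). Gata6 1443081_at lost it without mt-CCs 3, fl-CCs 3, EV 3, or R175H 2 or 3 (adjusted p = 0.0549 to 0.0742).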

How the results depend on the processing

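The differences of the 17 probe sets were recomputed in the 8 refits (the groups compared alone, the replicate block, no moderation, intensity trend, array weights, the filter at a mean of 5, control probe sets kept and quantile normalization) and without each of the 12 arrays, and 2224 kept their direction and their side of the threshold, 94 lost a call, 31 gained one and 0 reversed. All 338 values of these for mt-CCs against fl-CCs kept their call or lack of one. A fold limit was not part of these, and under a limit of 1 Foxa2 (-0.77), Pdx1 1422174_at (0.89) and Gata6 1443081_at (-0.88) would not be called between mt-CCs and fl-CCs. Called member probe sets, as lowest to highest with 1 array left out, were 4 to 8 for fl-CCs + p53 R175H against fl-CCs + EV (8 with all arrays), 5 to 9 for fl-CCs + EV against fl-CCs (8) and 1 to 5 for fl-CCs + p53 R175H against fl-CCs (3). With all arrays, 20.3%, 12.1% and 15.0% of all probe sets were called in these comparisons. Called member genes were 3 to 6 (5) and 1 to 3 (2) in the last 2 comparisons. For fl-CCs + p53 R175H against fl-CCs an intensity trend gave 6 probe sets, array weights 7 probe sets and 4 genes, a filter at a mean of 5 gave 6 probe sets and 4 genes, and the probe set of highest mean gave 1 gene. The calls over all probe sets rose as well, from 6762 to 8131 with the trend, 7691 with the weights and 7744 with the filter. The cause was not tested. With an added limit of 1 on the log2 difference, 3742 probe sets were called for mt-CCs against fl-CCs, 1552 for fl-CCs + p53 R175H against fl-CCs + EV, 1049 for fl-CCs + EV against fl-CCs, 1056 for fl-CCs + p53 R175H against fl-CCs, 3918 and 3870 for mt-CCs against fl-CCs + EV and fl-CCs + p53 R175H, and 5015 for the difference of differences, fewer by construction. Replicate numbers did not pair the arrays (correlations of deviations -0.09 to 0.06 over 18 pairs, 0 of them over 0.1). With the replicate block, 13288 probe sets and 12 of the 17 were called for mt-CCs against fl-CCs. For fl-CCs + p53 R175H against fl-CCs + EV these were 8527 and 6 of the 17, and for fl-CCs + EV against fl-CCs 4774 and 6 of the 17. With a near-background level of 6 in place of 5, Foxa3 would be given as a bound in mt-CCs. Without single arrays, an alternative chosen after seeing the data, the liver list had 1 to 2 higher and 10 to 13 lower in mt-CCs against fl-CCs, 12 to 14 and 0 to 1 in fl-CCs + p53 R175H against fl-CCs + EV, 0 and 8 to 10 in fl-CCs + EV against fl-CCs, and 5 to 8 and 1 to 2 in fl-CCs + p53 R175H against fl-CCs.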

Other observations

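Co-factors of these proteins moved in both directions. Of 17 measured, 7 rose and 7 fell in mt-CCs against fl-CCs, beside 22.2% and 21.1% of all genes, with a median of -0.17 against -0.01 over all genes. Zfpm1 and Zfpm2, which encode the FOG proteins that bind GATA factors, moved oppositely, with a difference of -2.27 ± 0.10 for Zfpm1 (adjusted p = 3.29e-09) and 1.15 ± 0.17 for Zfpm2 (adjusted p = 0.000199). Grhl2, an epithelial factor, was higher by 2.37 ± 0.13 and Meis1 by at least 0.62, and Tead2 (-1.12 ± 0.11) and Meis2 (-1.01 ± 0.10) were lower. In fl-CCs + p53 R175H 5 were higher and 5 lower than in fl-CCs + EV, beside 15.3% and 15.1%, among them Zfpm2 (3.05 ± 0.17), Meis3 (0.71 ± 0.13), Tle4 (-1.46 ± 0.10) and Tle2 (-0.61 ± 0.13).

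Of 28 other members of the Gata, Fox and Sox families, 4 were higher and 11 lower in mt-CCs against fl-CCs, beside 22.2% and 21.1% of all genes. Sox12 (2.61 ± 0.13), Gata2 (2.44 ± 0.14) and Sox7 (at least 0.84) were higher, and Foxd1 (at least 2.68), Sox11 (-2.25 ± 0.08) and Foxj1 (at least 1.21) were lower. In fl-CCs + p53 R175H against fl-CCs + EV, 4 were higher and 6 lower, beside 15.3% and 15.1%, with the largest rises in Foxf2 (0.92 ± 0.10) and Sox12 (0.68 ± 0.13) and the largest falls in Foxj1 (-1.26 ± 0.15) and Sox11 (-1.26 ± 0.08). Of 16 genes that SOX9 is known to drive in cartilage, 2 were higher and 2 lower in mt-CCs, beside 22.2% and 21.1% of all genes. In both lines 11 of the 16 were near background, Mia, which passed as lower, among them. In the second comparison 2 were higher and 3 lower, beside 15.3% and 15.1% of all genes, with Sox6 near background in both groups. Acan, the aggrecan gene, was lower in mt-CCs (-1.74 ± 0.16) and in fl-CCs + p53 R175H against fl-CCs + EV (-2.09 ± 0.16), Col11a1 was higher in both (at least 1.12 and at least 0.66), and Chst11 was higher in the first (1.06 ± 0.10) and lower in the second (-0.92 ± 0.10).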
